A study of Mus musculus with 8 samples.

Results

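Ceruloplasmin (Cp) and 9 further genes of iron oxidation, binding, uptake, export, storage and sensing were followed in spheroids of 4T1, a mouse mammary carcinoma line. The set consisted of the rows named Cp, Heph, Ltf, Tfrc, Slc40a1, Slc11a2, Fth1, Ftl1, Ireb2 and Aco1, which are 10 of the 39388 genes in the count table. The set was assembled around Cp with the results of the comparison already known, so the values of these 10 genes are a description. No p-value is given for them, and whether they passed the threshold used for all genes is stated only as part of that description. All 10 had a row, and 9 passed the filter on low counts, which left 13342 genes for testing. None of the 10 had a further row with a copy suffix to add.

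The shTlr7 libraries came from 4T1 spheroids carrying a lentiviral hairpin against Tlr7, an endosomal receptor for single-stranded RNA (shTlr7, n = 4), and their controls from 4T1 spheroids carrying a lentiviral scrambled hairpin (shCtrl, n = 4). All 8 were grown by the hanging drop method in the same serum-containing medium, and the comparison asks what differs in these cancer cells when Tlr7 is targeted. Nothing in the labels tells how many hairpins or clones were used, or whether replicates were grown separately, so any p-value reflects the spread among these libraries alone, and that spread may be technical. Library totals ranged from 18.1 to 93.8 M (mega) counts. Tlr7 itself had 0, 4, 3 and 0 counts in shTlr7 replicates 1 to 4, against 2, 3, 2 and 2 counts in shCtrl replicates 1 to 4, so its own level could not check the labels at this depth. Libraries separated by group on the first principal component (85.5% of the variance), and the library numbered 4 of each group stood apart on the second (4.88%). The 5 epithelial markers Krt8, Krt18, Epcam, Cdh1 and Cldn4 were all present and summed to 3668 to 4023 CPM in shTlr7 and 4165 to 4401 CPM in shCtrl, where CPM is a gene's count per M counts of the TMM-scaled library total. They did not move together, with log2 fold changes of -0.38 for Krt8 and -0.47 for Krt18 but 0.14 for Epcam, 0.2 for Cdh1 and 0.33 for Cldn4, of which Cldn4 did not pass the test (edgeR adjusted p = 0.0523). The 5 hepatocyte markers summed to at most 0.285 CPM in any shTlr7 library and 0.309 CPM in any shCtrl library, with Ttr at 0 throughout. The 5 leukocyte markers summed to 31.2 to 44.1 CPM in shTlr7 and 23.2 to 28.1 CPM in shCtrl, with Adgre1 and Lyz2 at 0 in all libraries. Nearly all of that sum was Cd68, at 30.7 to 43.8 CPM in shTlr7 and 22.0 to 26.9 CPM in shCtrl, whereas Csf1r fell to 0.16 to 0.285 CPM in shTlr7, against 0.917 to 1.41 CPM in shCtrl (log2 fold change -2.17, edgeR adjusted p = 4.17e-06). The 5 endothelial markers summed to 0.399 to 0.641 CPM in shTlr7 and 0.221 to 0.379 CPM in shCtrl, with Emcn at 0. Erythroid markers summed to 0.227 to 0.374 CPM in shTlr7 and 0.305 to 0.397 CPM in shCtrl. Fibroblast markers summed to 43.0 to 47.8 CPM in shTlr7 and 44.1 to 45.2 CPM in shCtrl. Nearly all of the fibroblast sum was Pdgfra, at 41.7 to 46.4 CPM in shTlr7 and 41.9 to 43.3 CPM in shCtrl. The part of these markers in the results was not tested. Fewer cells of a type and less RNA per cell cannot be told apart in such bulk samples.

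Iron enters most cells as ferric iron on transferrin, which the transferrin receptor carries into endosomes, where a metal transporter moves the reduced ion to the cytosol. Surplus iron is stored inside ferritin, a shell of heavy and light chains, or leaves through ferroportin, and a copper-containing ferroxidase such as ceruloplasmin oxidises it for loading on transferrin. Iron regulatory proteins bind hairpins called iron-responsive elements (IREs) when iron is low. Such a hairpin in a 5′ UTR holds back translation, whereas hairpins in the 3′ UTR of the transferrin receptor stabilise its transcript.

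Hairpins of 1 strict pattern are shown because iron regulatory proteins read hairpins of this kind, and the choice of genes did not use them. GENCODE M21 transcripts (GRCm38) of protein-coding genes were searched for a CAGTGN loop closed by 5 paired bases, an unpaired C before them, and at least 3 paired bases below, with G-T pairs allowed. The site was rare, with 0.0274% of 21866 protein-coding genes holding it in a 5′ UTR and 0.032% in a 3′ UTR. Among the 10 genes, 3 held it in the 5′ UTR and 1 in the 3′ UTR, as written here 5′ to 3′ on the transcript strand with the loop in capitals.
Fth1, 5′ UTR, chr19:9982733-9982759, plus strand: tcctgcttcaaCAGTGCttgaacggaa
Ftl1, 5′ UTR, chr7:45459780-45459806, minus strand: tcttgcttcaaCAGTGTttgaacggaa
Slc40a1, 5′ UTR, chr1:45925466-45925492, minus strand: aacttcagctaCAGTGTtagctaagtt
Tfrc, 3′ UTR, chr16:32631220-32631246, plus strand: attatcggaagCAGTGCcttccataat
Tfrc, 3′ UTR, chr16:32631599-32631625, plus strand: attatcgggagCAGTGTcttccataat
Tfrc, 3′ UTR, chr16:32631664-32631690, plus strand: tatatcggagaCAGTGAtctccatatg
Tfrc, 3′ UTR, chr16:32631711-32631737, plus strand: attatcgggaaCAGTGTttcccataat
The ferritin sites share their upper stem, and 3 of the 4 Tfrc sites open with attatcgg. No match was found in Cp, Heph, Ltf, Slc11a2, Ireb2 or Aco1, which says only that these letters in this arrangement are not in the transcripts searched. An IRE with another loop or pairing would be missed by this search, in these genes and in those with a match.

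Cp was far lower in shTlr7 and had the largest difference in CPM of the 10 genes. The gene (chromosome 3, 19957054 to 20009145, GRCm38) encodes ceruloplasmin, which circulates as an acute-phase plasma protein made by the liver and also exists in a membrane-anchored form. Cp stood at 246, 223, 240 and 236 CPM in shTlr7 replicates 1 to 4, against 1521, 1596, 1528 and 1624 CPM in shCtrl replicates 1 to 4. The groups lay far apart, and within each group the coefficient of variation was small, at 4.28% in shTlr7 and 3.22% in shCtrl. The mean was 236 ± 10.1 CPM in shTlr7 and 1567 ± 50.4 CPM in shCtrl (SD, n = 4 each), a 6.64-fold lower level in shTlr7 and a log2 fold change of -2.73 ± 0.05 (SE). Of the 13342 tested genes, 73 had a lower log2 fold change. Gene-level counts do not separate transcripts of the secreted and the anchored form. Exons of Hps3 on the opposite strand overlap 1.1% of the exon bases of Cp.

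Hephaestin (Heph), the membrane ferroxidase related to ceruloplasmin, had 0 counts in every library. A count of 0 allows up to 0.16, 0.0309, 0.0854 and 0.101 CPM in shTlr7 replicates 1 to 4 and up to 0.162, 0.061, 0.153 and 0.132 CPM in shCtrl replicates 1 to 4, taking 3 counts as the limit and covering counting error only. No ratio of Cp to Heph could be formed. The related ferroxidase Hephl1 did not pass the filter either.

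Lactoferrin (Ltf), a secreted iron-binding protein of milk and of neutrophil granules, was lower by a larger factor but from a low level. Its counts were 12, 57, 19 and 18 in shTlr7 replicates 1 to 4, against 121, 308, 126 and 187 in shCtrl replicates 1 to 4. In CPM these were 0.641, 0.587, 0.541 and 0.605 in shTlr7 and 6.55, 6.27, 6.42 and 8.25 in shCtrl. The groups did not overlap, shCtrl replicate 4 was the highest library, and the mean was 11.6-fold lower in shTlr7, with a log2 fold change of -3.54 ± 0.15 (SE). The 5 neutrophil markers S100a8, S100a9, Mpo, Elane and Camp summed to 0.269 to 0.427 CPM in shTlr7 and 0.379 to 0.574 CPM in shCtrl, with Mpo at 0 in all 8 libraries. These sums and the level of Ltf are CPM without regard to transcript length, so they are not ranked against each other. Whether neutrophils contributed to Ltf was not tested.

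**Figure D1:**
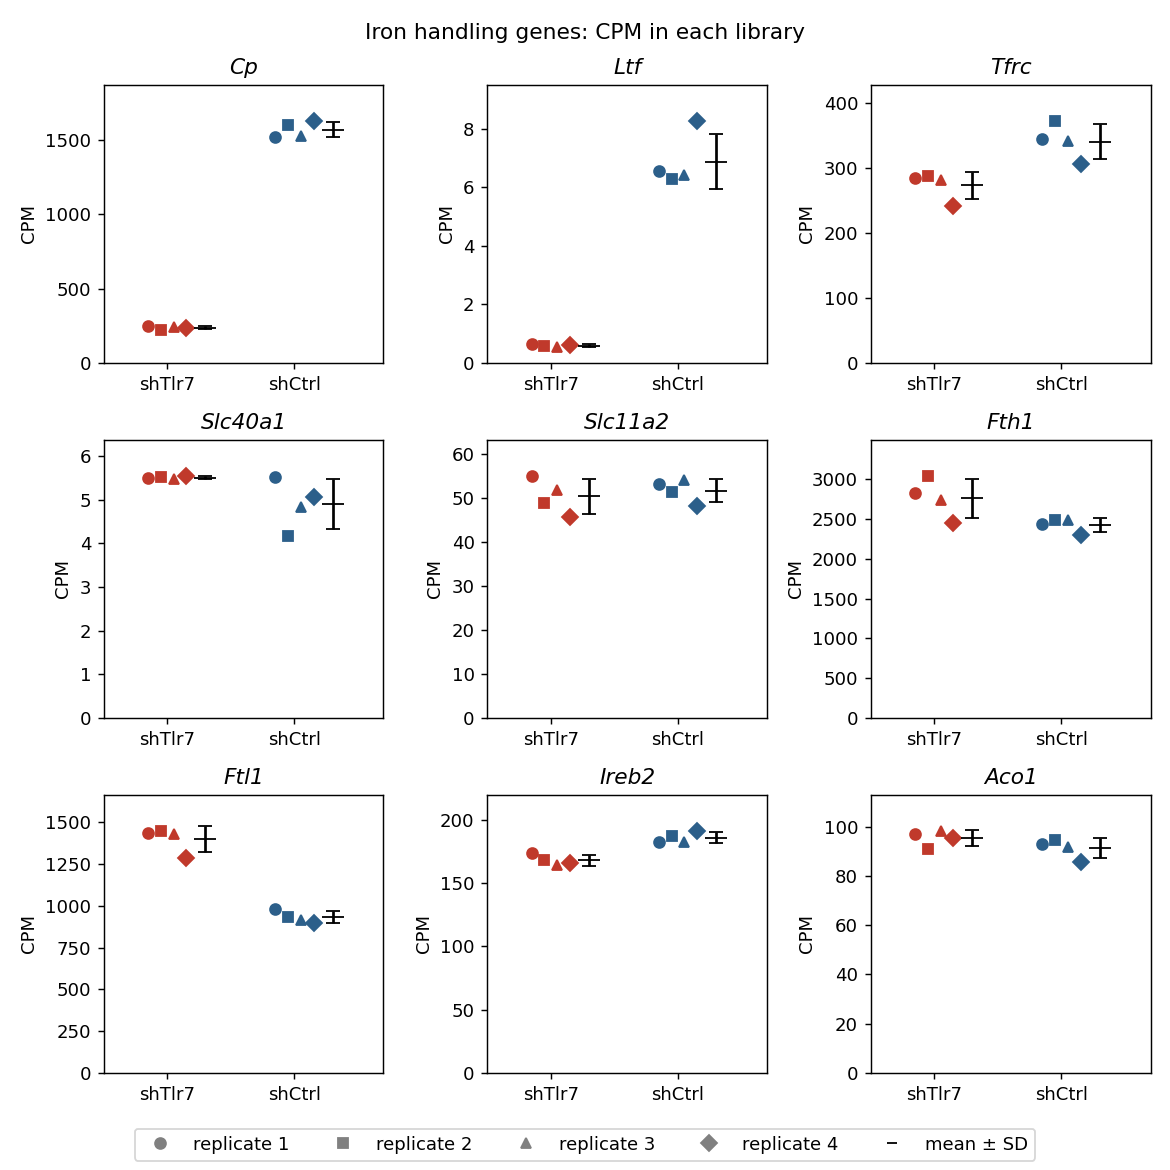
CPM of the 9 iron handling genes with counts, 1 panel per gene with its own axis from 0; points are libraries with a symbol per replicate number, and black bars are mean ± SD (n = 4). Cp and Ltf separate widely, Ftl1 lies higher and Tfrc lower in shTlr7, while Slc40a1, Slc11a2, Fth1 and Aco1 overlap between groups.

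Among the uptake genes of the set, Tfrc was lower in shTlr7, while Slc11a2 differed little. Tfrc, the transferrin receptor (chromosome 16, 32608920 to 32632794), stood at 284, 287, 281 and 242 CPM in shTlr7 replicates 1 to 4, against 344, 372, 341 and 306 CPM in shCtrl replicates 1 to 4. Replicate 4 was the lowest library of both groups, and the groups did not overlap. The mean was 273 ± 21.2 CPM in shTlr7 and 341 ± 26.8 CPM in shCtrl (SD, n = 4 each), a ratio of 0.802 and a log2 fold change of -0.32 ± 0.07 (SE). Slc11a2, the endosomal and intestinal importer of ferrous iron also called DMT1, stood at 54.9, 48.8, 51.8 and 45.6 CPM in shTlr7, against 53.2, 51.2, 54.0 and 48.1 CPM in shCtrl. These ranges overlapped almost completely, and the log2 fold change was -0.04 ± 0.06 (SE). With library size alone as the scaling it was 0.07, and without shTlr7 replicate 4 it was 0.01, so its sign depended on these choices.

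Ferroportin (Slc40a1), the only known cellular iron exporter, was scarce in both groups. It stood at 5.50, 5.52, 5.47 and 5.54 CPM in shTlr7 replicates 1 to 4, against 5.52, 4.17, 4.84 and 5.07 CPM in shCtrl replicates 1 to 4. The shTlr7 libraries lay within a narrow band that touched the highest shCtrl library. The log2 fold change was 0.19 ± 0.11 (SE), and 0.10 without shCtrl replicate 2. Slc40a1 was past the threshold used for all genes (adjusted p under 0.05) with limma-voom (0.23) and with library size scaling (0.30), and not with edgeR's main fit.

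Ferritin transcripts were among the most abundant of the spheroids and were higher in shTlr7, more so for the light chain. Ftl1, the light chain that helps the core mineralise (chromosome 7, 45457944 to 45459884), stood at 1438, 1449, 1430 and 1289 CPM in shTlr7 replicates 1 to 4, against 984, 935, 918 and 897 CPM in shCtrl replicates 1 to 4. Every shTlr7 library was above every shCtrl library, and shTlr7 replicate 4 was the lowest of its group. The mean was 1401 ± 75.3 CPM in shTlr7 and 933 ± 36.9 CPM in shCtrl (SD, n = 4 each), a ratio of 1.5 and a log2 fold change of 0.59 ± 0.05 (SE). Fth1, the heavy chain that carries the ferroxidase site of ferritin (chromosome 19, 9980598 to 9985098), stood at 2826, 3042, 2738 and 2449 CPM in shTlr7, against 2444, 2488, 2493 and 2304 CPM in shCtrl. The groups overlapped through shTlr7 replicate 4, which lay below 2 shCtrl libraries. The log2 fold change was 0.18 ± 0.06 (SE) with all libraries and 0.14 without shTlr7 replicate 2, where Fth1 was no longer past the threshold (edgeR adjusted p under 0.05). The level of Ftl1 is uncertain, because its transcript matches 11 other annotated genes at 95% identity or more over at least 100 bases. Among them are Ftl1-ps1, Ftl1-ps2 and Ftl2-ps. Of the 11, 9 had no row under their annotated names in the count table. The 2 with a row, Mir692-2 and Mir692-3, held 14 counts in all over the 8 libraries. The other 9 genes of the set had no such match. Annotated genes, among them Gm10252 on the opposite strand, also overlap 34.6% of the exon bases of Ftl1.

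Ratios within a library do not depend on scaling between libraries, and they separated the groups. The ratio of Fth1 to Ftl1 counts was 1.97, 2.1, 1.91 and 1.9 in shTlr7 replicates 1 to 4, against 2.48, 2.66, 2.72 and 2.57 in shCtrl replicates 1 to 4. All 4 shTlr7 values were below all 4 shCtrl values, with means of 1.97 ± 0.091 in shTlr7 and 2.61 ± 0.102 in shCtrl (SD, n = 4 each). The ratio of Tfrc to Fth1 was 0.101, 0.0942, 0.102 and 0.0987 in shTlr7, against 0.141, 0.149, 0.137 and 0.133 in shCtrl. Here too the groups did not overlap, also at replicate 4, where both genes were at their lowest. Relative to shCtrl, Tfrc lay lower and Ftl1 higher in all 4 shTlr7 libraries. The summed ferritin level was 4165 ± 315 CPM in shTlr7 and 3365 ± 110 CPM in shCtrl (SD, n = 4 each).

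**Figure D2:**
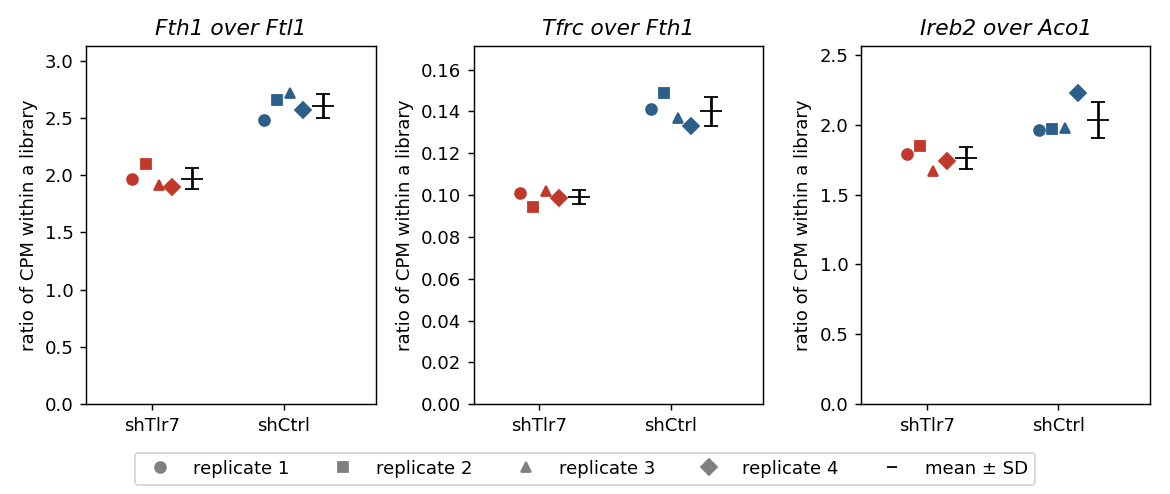
Ratios of CPM between gene pairs within each library for Fth1 over Ftl1, Tfrc over Fth1 and Ireb2 over Aco1, axes from 0; points are libraries and black bars mean ± SD (n = 4). In all 3 panels each shTlr7 library lies below each shCtrl library.

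The genes of the iron regulatory proteins differed little between groups. Ireb2, which encodes IRP2, a protein degraded when iron is plentiful, stood at 174, 168, 164 and 166 CPM in shTlr7 replicates 1 to 4, against 182, 187, 182 and 191 CPM in shCtrl replicates 1 to 4. The groups did not overlap, but the mean ratio was 0.907 and the log2 fold change -0.14 ± 0.04 (SE). It became -0.03 when libraries were scaled by size alone, and there and without a filter on low counts (-0.12) Ireb2 was not past the threshold. Aco1, which encodes IRP1, a protein that serves as cytosolic aconitase when it holds an iron-sulphur cluster, stood at 97.0, 91.1, 98.3 and 95.5 CPM in shTlr7, against 93.0, 94.8, 92.0 and 85.8 CPM in shCtrl. These ranges overlapped, with a log2 fold change of 0.06 ± 0.04 (SE). The ratio of Ireb2 to Aco1 was 1.76 ± 0.0759 in shTlr7 and 2.03 ± 0.131 in shCtrl (SD, n = 4 each).

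Of the 9 tested genes, 2 were higher and 4 lower in shTlr7 at an edgeR adjusted p under 0.05, and 5 had groups that did not overlap in CPM, with shTlr7 above for 1 and below for 4. Over all 13342 tested genes 56.0% were past that threshold, 28.7% higher and 27.2% lower. The groups did not overlap for 49.8% of them, with shTlr7 above for 25.6% and below for 24.1%. Since the set was chosen with this contrast known, nothing is read from its count. The main scaling called 3835 genes higher and 3631 lower, while scaling by library size alone called 5503 higher and 2483 lower and shifted the all-gene median by 0.108 on the log2 scale. Under library size scaling 4 genes of the set were higher and 3 lower. The direction of Cp, Ltf, Tfrc, Fth1 and Ftl1 was the same under all 19 alternative fits, with log2 fold changes from -2.75 to -2.62 for Cp, from -3.87 to -3.43 for Ltf, from -0.37 to -0.21 for Tfrc, from 0.14 to 0.29 for Fth1 and from 0.57 to 0.69 for Ftl1.

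**Figure D3:**
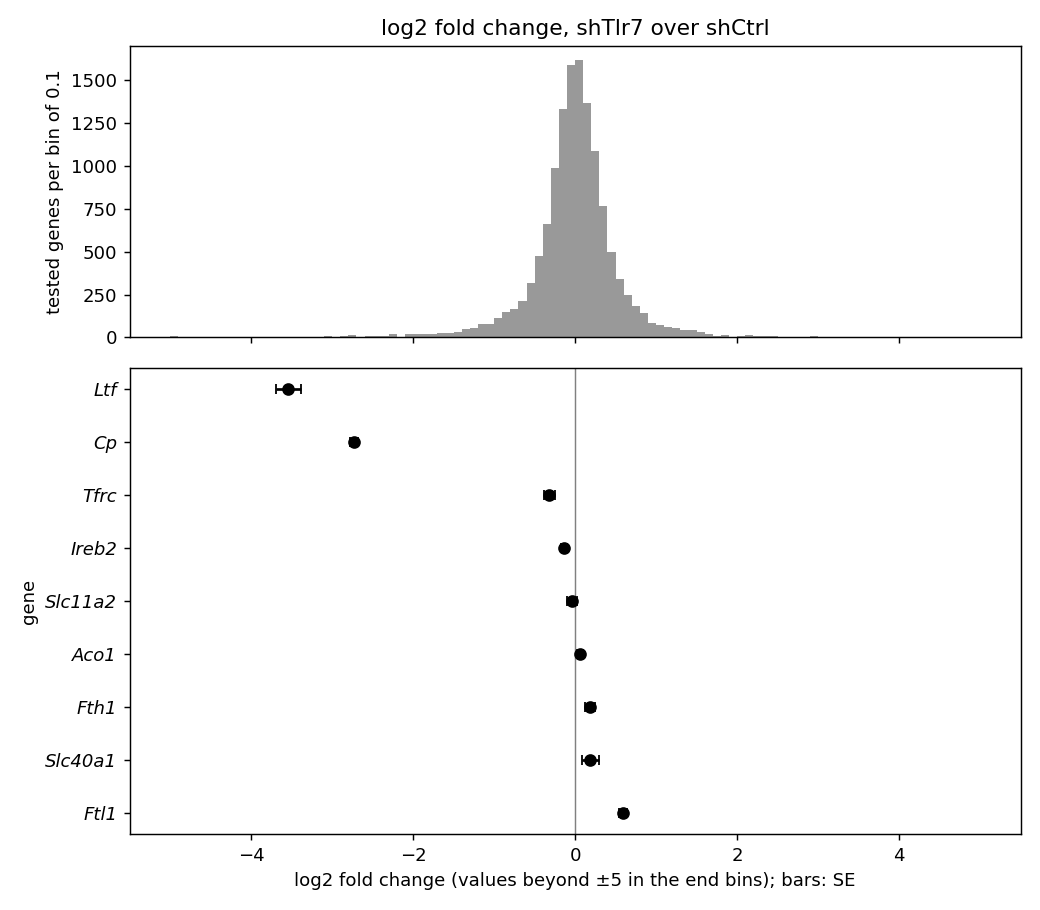
Top, distribution of the log2 fold change (shTlr7 over shCtrl) of all 13342 tested genes in bins of 0.1; bottom, the 9 tested iron handling genes with their SE as bars. Ltf and Cp lie in the far lower tail, whereas the other 7 lie between -0.32 and 0.59.

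Per exon length, the set spanned several orders of magnitude. In shTlr7 the order of mean level in CPM per kb of merged exon was Ftl1 (1046), Fth1 (797), Tfrc (44.2), Cp (24.7), Aco1 (21.2), Ireb2 (17.7), Slc11a2 (7.91), Slc40a1 (0.612), Ltf (0.172) and Heph (0). In shCtrl it was Fth1 (701), Ftl1 (697), Cp (164), Tfrc (55.1), Aco1 (20.3), Ireb2 (19.6), Slc11a2 (8.12), Ltf (1.99), Slc40a1 (0.545) and Heph (0). The ranges of the ferritin chains overlapped in shCtrl, at 664 to 719 CPM per kb for Fth1 and 670 to 734 for Ftl1, and so did those of Aco1 and Ireb2, at 19.1 to 21.1 and 19.2 to 20.2. In shTlr7 neither pair overlapped, although Ireb2 stood above Aco1 in both groups when the longest transcript was taken as the length. Among 12465 tested genes with a length, Cp ranked at 2265 in shTlr7 and at 199 in shCtrl. Per kb of merged exon, Cp was above Tfrc in each shCtrl library and below it in each shTlr7 library. With the longest transcript as the length, the shTlr7 means lay close together, at 51.8 for Cp and 55.9 for Tfrc. The shCtrl means were then 343 for Cp and 69.7 for Tfrc. The order within each library is therefore stated for merged exons only.

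**Figure D4:**
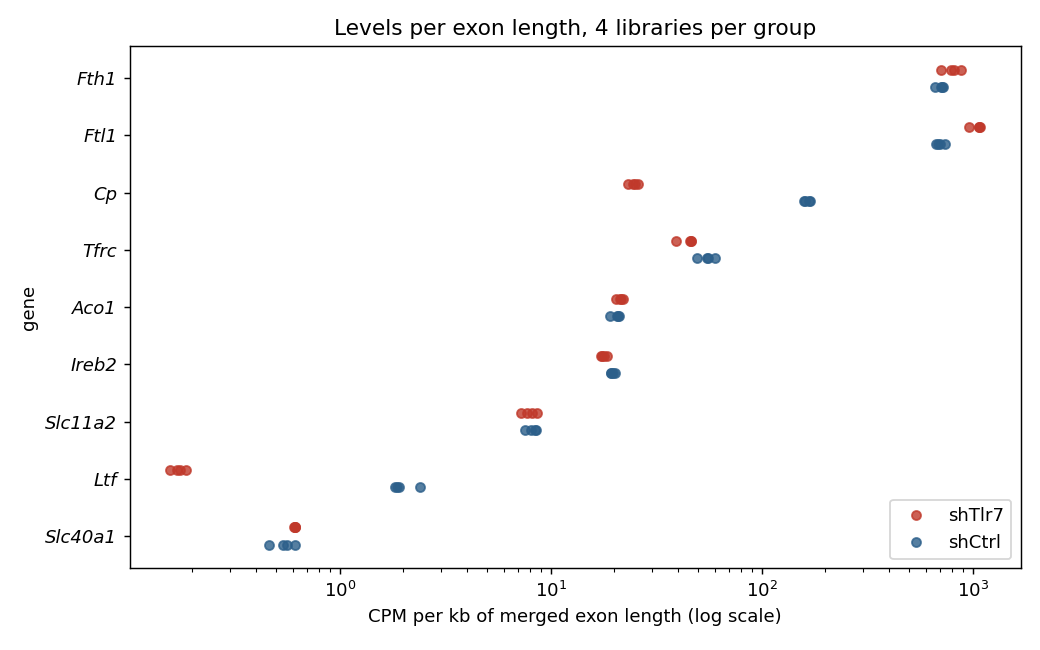
CPM per kb of merged exon length for the 9 genes with counts, on a log axis; each point is a library, red for shTlr7 and blue for shCtrl, with genes ordered by their shCtrl mean. The ferritin chains lie highest in both groups, and 3 neighbouring pairs exchange places between groups (Ftl1 and Fth1, Tfrc and Cp, Slc40a1 and Ltf).

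Replicate 4 was the lowest library of both groups for 4 of the 9 genes, namely Tfrc, Slc11a2, Fth1 and Ftl1, while Cp, Ltf and Ireb2 were highest in replicate 4 of shCtrl. Without both libraries numbered 4 the log2 fold changes were -2.71 for Cp, -3.45 for Ltf, -0.31 for Tfrc, 0.21 for Fth1, 0.61 for Ftl1 and -0.12 for Ireb2, all of the same direction as with all 8.

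The genes whose log2 CPM followed that of Cp most closely across the 8 libraries were the focal adhesion protein Tns3 (Pearson r = 0.9998), the signal peptidase subunit Spcs2 (0.9992), the transcription factor Tcf4 (0.9992), the integrin ligand Npnt (0.9989) and thymosin beta 4, Tmsb4x (0.9987). All 5 were lower in shTlr7, with Npnt at 159 ± 5.02 CPM in shTlr7 and 575 ± 9.71 CPM in shCtrl. Among 10527 genes compared, 175 had r above 0.99, since libraries fall into 2 groups and any gene with a clean difference between them scores high.

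The wider network was read from 7 lists chosen by function, of 105 genes in all, of which 90 were tested. Together 33 were higher and 26 lower, 65.6% past the threshold against 56.0% of all tested genes, with a median log2 fold change of 0.05 against 0.006. These shares describe the lists, and no list was tested as a set.

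Of 11 tested iron uptake genes, 6 fell and 3 rose in shTlr7, with a median log2 fold change of -0.55. Past the threshold were 81.8% of them against 56.0% of all genes, of which 27.2% were lower. In 7 of the 8 fits that left out a library 5 genes fell, since Scara5, a ferritin receptor chosen after its values were seen, was near the threshold (-0.95 ± 0.33 SE, edgeR adjusted p = 0.048). Over these fits 1 to 3 genes rose. Steap4, also chosen after its values were seen, was near the threshold too (0.95 ± 0.35 SE, edgeR adjusted p = 0.0442). Its groups overlapped, and among these fits it kept its call only without shTlr7 replicate 4. Slc39a14, a zinc transporter family member that imports iron not bound to transferrin, had 136 ± 5.17 CPM in shTlr7 and 210 ± 5.68 CPM in shCtrl (log2 fold change -0.63 ± 0.04 SE, edgeR adjusted p = 2.93e-08). Steap3, the endosomal ferrireductase that works with the transferrin receptor, had 18.7 ± 1.74 CPM in shTlr7 and 34.9 ± 3.13 CPM in shCtrl (-0.89, edgeR adjusted p = 5.18e-07). The related reductase Steap2 fell to 158 ± 8.48 CPM in shTlr7, against 232 ± 13 CPM in shCtrl (-0.56, edgeR adjusted p = 7.5e-07). Mcoln1, a lysosomal channel that can release iron, rose to between 50.8 and 56.7 CPM in shTlr7, against 41.5 to 44.7 CPM in shCtrl (0.34, edgeR adjusted p = 6.35e-05). Lcn2, chosen after its values were seen, encodes a lipocalin that binds iron-carrying siderophores, and stood at 485, 406, 372 and 228 CPM in shTlr7 replicates 1 to 4, against 662, 635, 670 and 892 CPM in shCtrl replicates 1 to 4 (-0.94 ± 0.24 SE, edgeR adjusted p = 0.0155). Replicate 4 was the most extreme library of both groups for Lcn2. Transferrin (Trf), Tfr2, Timd2 and Slc22a17 did not pass the filter, and between 6 and 9 genes of the list were called when any single library was left out.

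Of 10 tested genes that act on ferritin or carry cytosolic iron, 4 rose and 4 fell, with a median log2 fold change of 0.08. The 80.0% past the threshold stood against 56.0% of all genes. Under library size scaling 6 rose and 1 fell, where 5503 of all 13342 tested genes were higher and 2483 lower. Atg5, a factor of autophagosome formation, rose by 0.49 ± 0.05 SE (edgeR adjusted p = 3.3e-06), whereas Atg7, the activating enzyme of the same conjugation pathway, fell by 0.34 ± 0.05 SE (edgeR adjusted p = 4.72e-05). Gabarapl2, an ATG8 family protein, rose to 24.8 ± 1.55 CPM in shTlr7, against 19.6 ± 1.54 CPM in shCtrl, and Bola2, a partner in cytosolic iron transfer, rose to 17.2 ± 1.69 CPM in shTlr7, against 12.6 ± 1.01 CPM in shCtrl (edgeR adjusted p = 0.00105 and 0.000477). Ncoa4, the receptor that delivers ferritin to autophagosomes and chosen after its values were seen, had a log2 fold change of 0.27 ± 0.07 SE (edgeR adjusted p = 0.00551).

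Of 9 tested genes that control iron regulatory proteins or are known in mammals to carry an IRE, 1 rose and 3 fell, a share of 44.4% against 56.0% of all genes. The balance depended on the processing. It was 5 higher and 2 lower under library size scaling, where 5503 of all 13342 tested genes were higher and 2483 lower. It was 3 and 2 under upper-quartile scaling or without a filter, 3 and 3 with copies not summed, and 3 and 4 with limma-voom. Fbxl5, the iron-sensing ubiquitin ligase subunit that marks IRP2 for degradation, fell to 126 ± 2.9 CPM in shTlr7, against 152 ± 13.3 CPM in shCtrl (-0.28 ± 0.05 SE, edgeR adjusted p = 0.000662). Hao1, a peroxisomal oxidase whose transcript is described as carrying an IRE, fell to 2.92 ± 0.481 CPM in shTlr7, against 6.06 ± 0.305 CPM in shCtrl (-1.01 ± 0.12 SE, edgeR adjusted p = 1.08e-05). Rbx1, a ubiquitin ligase subunit, at -0.13 (edgeR adjusted p = 0.0332) and the phosphatase Cdc14a at 0.14 (edgeR adjusted p = 0.028) were small and near the threshold. Without a single library their log2 fold changes stayed close, at 0.11 to 0.13 for Cdc14a and -0.13 to -0.1 for Rbx1 where the call was lost. Cdc14a was past the threshold neither without shCtrl replicate 1 (edgeR adjusted p = 0.0926) or 3 (0.0877) nor without shTlr7 replicate 1 (0.0611). The same held for Rbx1 without shCtrl replicate 2 (0.094) or 3 (0.0672) and without shTlr7 replicate 1 (0.104), 2 (0.0596) or 4 (0.0514). Without shCtrl replicate 3 the list had 2 called genes. Epas1, which encodes HIF-2 alpha, and Alas2 did not pass the filter.

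In the list of the hepcidin axis and iron export, the hepcidin genes Hamp and Hamp2, along with Hjv, Bmp2, Bmp6 and Hephl1, did not pass the filter. Of the 6 genes tested 3 fell and 0 rose, a share past the threshold of 50% against 56.0% of all genes. Tmprss6, a serine protease that restrains hepcidin expression in the liver, stood at 1.23, 1.34, 1.03 and 1.38 CPM in shTlr7 replicates 1 to 4, against 6.01, 4.72, 4.69 and 8.34 CPM in shCtrl replicates 1 to 4. The groups did not overlap (-2.22 ± 0.20 SE, edgeR adjusted p = 8.93e-07). Furin, a proprotein convertase, fell to 237 ± 13.1 CPM in shTlr7, against 293 ± 14.9 CPM in shCtrl (-0.31, edgeR adjusted p = 0.000135). The ubiquitin ligase Nedd4l fell by 0.19 ± 0.05 SE (edgeR adjusted p = 0.00642), with -0.08 under scaling by library size (edgeR adjusted p = 0.162). Neo1, a coreceptor of bone morphogenetic proteins, was at -0.1 (edgeR adjusted p = 0.0569), and at -0.12 without shTlr7 replicate 1 (0.0235). Neo1 also passed with limma-voom (adjusted p = 0.0302) and with the filter of at least 1 CPM (edgeR adjusted p = 0.0474), and stood at 0.01 under library size scaling (0.815).

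All 25 listed genes of mitochondrial iron and iron-sulphur cluster assembly were tested, and 13 rose and 6 fell, with a median log2 fold change of 0.15. The 76.0% past the threshold stood against 56.0% of all genes. Under library size scaling 15 rose and 2 fell, where 5503 of all 13342 tested genes were higher and 2483 lower. Nfs1, the cysteine desulphurase that supplies sulphur to the cluster, rose to 60.6 ± 1.95 CPM in shTlr7, against 39.1 ± 2.14 CPM in shCtrl (0.63 ± 0.05 SE, edgeR adjusted p = 2.35e-07). Cisd1, an iron-sulphur protein of the outer mitochondrial membrane, rose to 34.2 ± 2.79 CPM in shTlr7, against 22.0 ± 2.28 CPM in shCtrl (0.64 ± 0.08 SE, edgeR adjusted p = 1.18e-05). The inner-membrane transporter Abcb10 rose by 0.37 (edgeR adjusted p = 3.92e-05), and Nubp1, a scaffold of the cytosolic cluster pathway, fell by 0.50 (edgeR adjusted p = 4.78e-05). The mitoferrins, chosen after their values were seen, differed in direction, with Slc25a37 at -0.50 ± 0.07 SE (edgeR adjusted p = 6.31e-05) and Slc25a28 at 0.37 ± 0.06 SE (edgeR adjusted p = 0.00011).

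Of 16 tested haem genes, 7 rose and 1 fell, and the 50% past the threshold was below the 56.0% of all genes. Hmox1, the inducible oxygenase that frees iron from haem, stood at 41.3, 39.5, 46.4 and 33.1 CPM in shTlr7 replicates 1 to 4, against 16.4, 16.2, 15.6 and 12.7 CPM in shCtrl replicates 1 to 4. Every shTlr7 library was above every shCtrl library (1.39 ± 0.11 SE, edgeR adjusted p = 6.21e-07). Blvrb, which reduces biliverdin, rose to 17.8 ± 1.31 CPM in shTlr7, against 11.5 ± 0.574 CPM in shCtrl (0.64, edgeR adjusted p = 6.57e-06). The haem exporter Flvcr1 rose to 45.1 ± 1.75 CPM in shTlr7, against 31.0 ± 0.736 CPM in shCtrl (0.54, edgeR adjusted p = 6.97e-07). The endolysosomal haem transporter Slc48a1 rose to 139 ± 8.37 CPM in shTlr7, against 95.4 ± 4.47 CPM in shCtrl (0.54, edgeR adjusted p = 1.05e-06).

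Copper handling matters to ceruloplasmin because the protein is loaded with copper in the secretory pathway. Of 14 tested copper genes, 6 rose and 3 fell, with a median log2 fold change of 0.05 and 64.3% past the threshold against 56.0% of all genes. Atp7b, a copper pump that loads ceruloplasmin in hepatocytes, fell to 0.824 ± 0.187 CPM in shTlr7, against 1.8 ± 0.421 CPM in shCtrl (-1.11 ± 0.21 SE, edgeR adjusted p = 0.000479). Atp7a, the far more abundant copper pump of the list, was chosen after its values were seen. It stood at 59.2 ± 4.62 CPM in shTlr7, against 50.6 ± 2.41 CPM in shCtrl, with overlapping groups (0.22 ± 0.06 SE, edgeR adjusted p = 0.0058). The copper chaperone Atox1 rose to 84.9 ± 2.16 CPM in shTlr7, against 67.8 ± 3.05 CPM in shCtrl (0.33, edgeR adjusted p = 3.82e-05). Commd1, a regulator of copper export, fell by 0.32 ± 0.06 SE (edgeR adjusted p = 0.000344), and the copper-zinc superoxide dismutase Sod1 rose by 0.17 ± 0.04 SE (edgeR adjusted p = 0.00161).

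**Figure D5:**
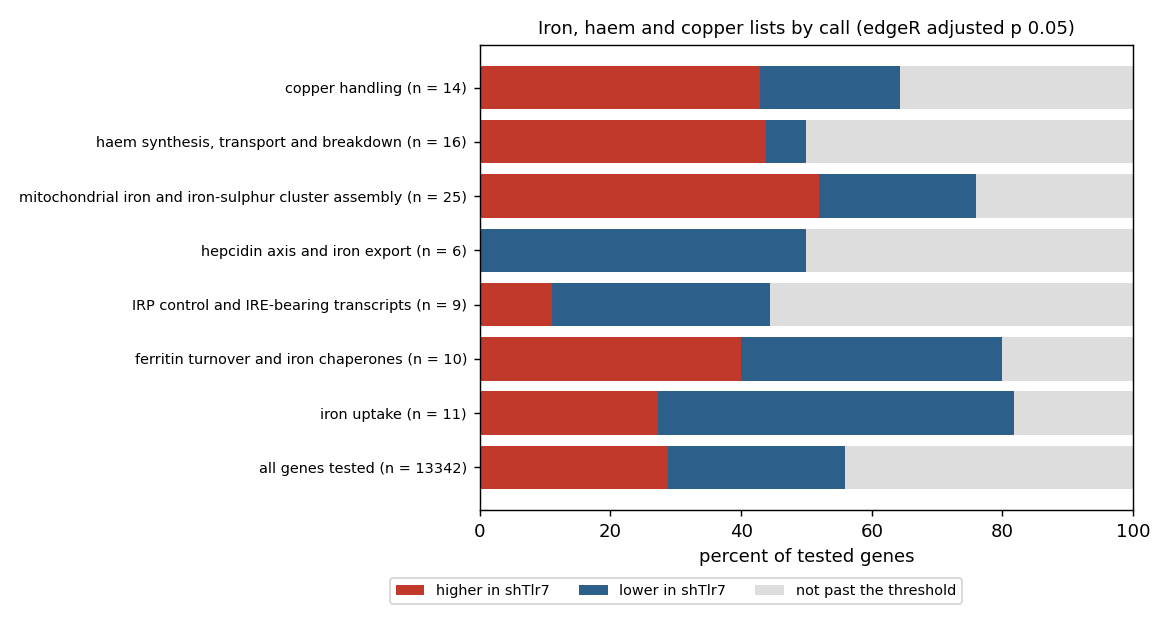
Percent of tested genes that were higher, lower or not past the threshold in shTlr7, for the 7 lists and for all tested genes, with the number tested in brackets. In the iron uptake list 3 of 11 genes were higher and 6 lower, and in the haem list 7 of 16 were higher, 1 lower and 8 not past the threshold.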

How the data were processed

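Raw gene counts, whole numbers with no normalization and a column for each library, are what the authors deposited. STAR 2.7.5, DESeq2 1.32.0 and GRCm38 are named, per the submitters' processing notes, without their roles. How reads were assigned to genes, with which annotation and strand setting, was not given in the sources used here. Reads of overlapping or antisense genes therefore cannot be told apart. The 10 genes, the lists and the tests were chosen with earlier results of these data known.

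Of 41730 rows, 2379 had a numbered copy suffix, and rows that shared a name without it were summed, leaving 39388 genes. The fit used edgeR 4.0.16 under R 4.3.3 (filterByExpr, TMM scaling, robust quasi-likelihood test, group as the only term, Benjamini-Hochberg adjusted p under 0.05 over 13342 genes). SE is the log2 fold change over the square root of F. Named list genes are the 4 with the lowest p in each list and any called at a log2 fold change of at least 1 in size; others are marked as chosen after their values were seen. Genes like Cp needed an average log2 CPM of at least 1. Lengths, overlaps and IRE sites came from GENCODE M21, matched by symbol, and look-alike transcripts from BLAST 2.17.0.

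On simulated data for this comparison over 13201 genes, 56% of genes changed 1.25-fold, 82% changed 1.5-fold and 93.8% changed 2-fold were recovered. Of the 175 genes called there, 6.86% were unchanged ones. Only 48 to 50 genes were changed at each fold, whereas 56.0% of genes were past the threshold in the data. These rates therefore need not hold for the data. Alternatives were RLE, upper-quartile and library-size scaling, DESeq2 1.42.0, limma-voom (limma 3.58.1), other filters, adjusted p under 0.01, copies not summed, thinned libraries, a replicate block and left-out libraries. All replicate pairs differed by more than sampling noise (chi-square per degree of freedom 2.24 to 22.8). The limits given for Heph cover counting error only, whereas each SD and SE includes the spread among libraries.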

Additional observations from a re-analysis of the deposited data

Results flagged for a closer look

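In 6 of 74 groups of 4 libraries, 1 library stood far from the other 3 by Dixon's criterion, which chance alone meets in about 1 group in 20. Replicate 4 was that library for 5 of the 6. In shTlr7 it was low for Tfrc (242 CPM, the others from 281 to 287), Ftl1 (1289 CPM, the others from 1430 to 1449) and Steap2 (145 CPM, the others from 160 to 163). In shCtrl it was high for Ltf (8.25 CPM, the others from 6.27 to 6.55) and Fbxl5 (172 CPM, the others from 144 to 148). The remaining group was Furin in shCtrl, where replicate 1 was high (315 CPM, the others from 284 to 289).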

How the results depend on the processing

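Of the iron handling genes, 2 were called higher with all libraries; the count was 4 under scaling by library size only, 3 with limma-voom, 1 at adjusted p under 0.01, and 1 to 2 over the fits that left out a library each, with 1 without shTlr7 replicate 2. The list of IRP control and IRE-bearing transcripts had 4 called genes, against 7 under scaling by library size only, 7 with limma-voom, 7 with the replicate block, 2 at adjusted p under 0.01 and 2 to 5 with a library left out. At adjusted p under 0.01 the iron uptake list had 5 called genes of 11 against 9, and the mitochondrial list 12 of 25 against 19. Over all 13342 tested genes 2957 were then higher and 2843 lower, against 3835 and 3631. The shares given for these lists against 56.0% of all genes hold for the 0.05 threshold only. With the longest transcript as the length, Ireb2 took position 5 and Aco1 position 6 of the level order in both groups, against 6 and 5 with merged exons. The cause of these changes was not tested. No called gene of the set changed sign. The replicate numbers were not treated as pairs, since deviations of same-numbered libraries correlated at -0.001, 0.114, 0.12 and 0.383 for numbers 1 to 4; with the replicate block 4241 genes were higher and 4075 lower, and Lcn2 was no longer past the threshold at a log2 fold change of -0.97 (edgeR adjusted p = 0.0848), while Neo1 was (0.0419). Depth limits Heph, with 0 counts, and Ltf in shTlr7, with 12 to 57 counts a library.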
